A study of Mus musculus with 2 samples.

Results

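Genes of the contractile and actin cytoskeleton, meaning actins, myosins, troponins, tropomyosins and the proteins that bind them, were compared between liver metastases and primary tumours of Colon26, a mouse colon carcinoma line. They were picked by a pattern of gene symbols that uses no measured value. Of 80 such symbols on the array, 64 had a value on both arrays, out of 13506 named genes measured on both. Each of 2 two-colour arrays carried a liver metastasis labelled with Cy3 and a primary tumour labelled with Cy5. Balb/c mice had received cultured Colon26 cells into the submucosa of the rectum, and the tumour pairs of the arrays were grown and harvested separately. All samples thus share 1 cell line, and the sources used here do not give the age, sex or number of the mice. RNA was total RNA of the tumours, so host cells caught in the tissue would be part of it.

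Actin filaments shape the cell and carry its movement, and myosins pull on them using ATP. In striated muscle the troponin complex and tropomyosin switch this pull on with calcium, whereas in smooth muscle and other cells the switch is phosphorylation of the myosin light chains. Carcinoma cells use the non-muscle forms, and the muscle forms are best known from the muscle layers of the gut wall, vessels, skeletal muscle and heart.

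Values are deposited log ratios, taken as log2. The files do not state which channel is the numerator, so a value is given as lying on the positive or the negative side, and neither side is assigned to the metastasis or the primary tumour. Means are given ± SD over the 2 arrays (n = 2), and a gene counts as called at an adjusted p under 0.05 in limma's fit over all 13506 genes. Ratios hold no level of a gene in either tissue, so neither the cell line's identity nor its epithelial markers could be checked as levels. In bulk tissue, a ratio cannot tell fewer cells of a type from less RNA per cell. The dyes were not swapped, so any preference of a probe for 1 dye sits in both arrays and cannot be told apart from the tissue difference.

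Of the 64 genes, 5 were called. On the negative side were Tmsb4x, Tnnt2 and Vim, and on the positive side Actn3 and Cnn1. The 3 negative calls compare with 0.777% of all genes called on that side, and the 2 positive calls with 2.12%; both sides together gave 5 of 64 against 2.9% of all genes. An unadjusted p under 0.05 was met by 24 of the 64, against 27.5% of all genes. Both arrays reached 1 log2 unit or more for Tmsb4x and Tnnt2 on the negative side (0.578% of all genes) and for Actn3 on the positive side (1.7%). The whole group did not lie to 1 side. Its median was -0.07, against -0.02 for all genes tested. On both arrays 23 were positive, against 33.9% of all genes, and 29 were negative, against 38.2%, while 12 had mixed signs or a 0. The group was spread wider than the genes as a whole, with an SD across genes of 0.80 on array 1 and 0.76 on array 2, against 0.51 and 0.55. Without Tmsb4x and Tnnt2 these were 0.55 and 0.61. Across the 64 genes, which share the same 2 arrays and are not independent, Pearson's r between the arrays was 0.78 and Spearman's rank correlation 0.66. Without Tmsb4x and Tnnt2 these were 0.63 and 0.62, against 0.61 and 0.58 over all genes tested.

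**Figure D1:**
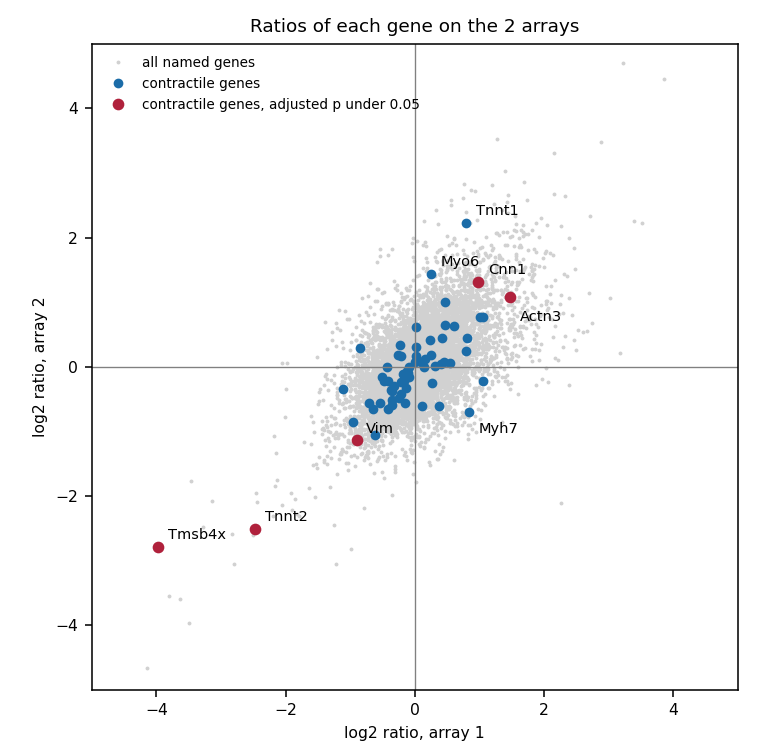
Log2 ratio on array 1 (x axis) and on array 2 (y axis) for each gene; grey points are the 13506 named genes, blue points the 64 contractile genes, and red points the 5 called. Tmsb4x and Tnnt2 sit at the far negative end on both arrays, and Myh7 has opposite signs, at 0.84 and -0.70.

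Thymosins are small peptides that bind single actin molecules and keep them out of filaments. Tmsb4x, thymosin beta 4, had ratios of -3.97 and -2.78, averaging -3.38 ± 0.84 (limma adjusted p 0.0282). It ranked number 5 of the 7059 genes with a negative mean, and the ratio is 10.4-fold where base 2 holds. Its close relative Tmsb10 lay slightly on the other side, at 0.25 and 0.18 (0.21 ± 0.05, limma adjusted p 0.392). The ratios of these relatives did not overlap: both arrays put them on opposite sides. Their difference was not tested. Tmsb4x has near-identical copies in the genome, and its probe may read more than 1 of them. The 250 bases before its start in RefSeq (GRCm38.p6, chrX:167209219-167209468, minus strand) are shown because it has the widest ratio of the group, and hold neither of the motifs searched below:

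Tmsb4x: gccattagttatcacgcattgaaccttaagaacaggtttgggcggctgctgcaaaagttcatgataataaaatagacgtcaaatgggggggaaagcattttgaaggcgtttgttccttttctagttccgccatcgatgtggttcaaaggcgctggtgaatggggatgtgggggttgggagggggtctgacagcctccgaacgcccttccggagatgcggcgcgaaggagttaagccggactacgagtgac

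In the troponins, the calcium switch of striated muscle, the subunits that bind tropomyosin lay apart. Tnnt2, troponin T of the heart, had -2.47 and -2.50 (-2.49 ± 0.02, limma adjusted p 0.0200) and ranked number 12 on the negative side. Tnnt1, troponin T of slow skeletal muscle, had 0.80 and 2.22 (1.51 ± 1.01, limma adjusted p 0.0877). The arrays agree on its side and differ widely in its size. The third relative, Tnnt3 of fast muscle, had a value on 1 array only, at -0.43. Among the calcium-binding subunits, Tnnc2 of fast muscle had 0.81 and 0.45 and Tnnc1 of slow and heart muscle 0.42 and 0.44, both positive on both arrays and neither called. None of the inhibitory subunits was called. Tnni1 was negative on both arrays, at -0.36 ± 0.29, and the others had means nearer 0, Tnni2 0.10 ± 0.11 and Tnni3 -0.04 ± 0.31. Of 7 troponins, 4 were positive and 2 negative on both arrays. RefSeq lists 2 start sites for Tnnt2, shown because no other member of the group repeated so wide a ratio this closely:

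Tnnt2, first start (chr1:135836084-135836333, plus strand): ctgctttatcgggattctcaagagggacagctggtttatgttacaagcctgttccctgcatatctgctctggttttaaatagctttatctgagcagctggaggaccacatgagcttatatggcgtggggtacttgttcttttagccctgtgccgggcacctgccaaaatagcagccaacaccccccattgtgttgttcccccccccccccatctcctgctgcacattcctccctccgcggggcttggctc

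Tnnt2, second start (chr1:135836739-135836988, plus strand): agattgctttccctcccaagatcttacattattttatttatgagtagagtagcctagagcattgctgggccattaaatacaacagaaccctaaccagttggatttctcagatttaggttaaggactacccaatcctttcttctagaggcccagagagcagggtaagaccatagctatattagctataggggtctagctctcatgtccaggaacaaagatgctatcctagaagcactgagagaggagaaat

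Tropomyosins, which lie along the actin filament, gave 0 calls in limma's test among 4 genes, with 0 at an unadjusted p under 0.05. Tpm1 had -0.36 and -0.38 (-0.37 ± 0.01), Tpm2 -0.12 ± 0.05 and Tpm4 0.32 ± 0.13. The 2 probes of Tpm3 disagreed, at 0.33 ± 0.10 and -0.78 ± 0.11, so its mean of -0.23 stands for neither. Tropomyosin genes make several transcripts each, and the sources used here do not say which of them a probe reads.

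Of the actins, 3 had a value on both arrays, all on the negative side, and Acta1 of skeletal muscle had 0.24 on array 1 only. Actb, the actin of all cells and a common reference gene, had -0.72 and -0.55 (-0.63 ± 0.11, limma adjusted p 0.0922), with its 2 probes at -0.49 ± 0.33 and -0.78 ± 0.10. Actg2, an actin of gut smooth muscle, had -0.64 and -0.66 (-0.65 ± 0.01, adjusted p 0.0877). Acta2, the actin of vessel walls and of activated fibroblasts, had -0.51 and -0.15 (-0.33 ± 0.25, adjusted p 0.265). None was called in limma's test. Actins are near-identical in sequence, so their probes may cross-read.

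The alpha-actinins, which tie actin filaments together, lay on both sides. Actn3, the form of fast skeletal muscle, had 1.47 and 1.08 (1.27 ± 0.28, limma adjusted p 0.0438). Actn1 and Actn4, the forms of non-muscle cells, had 0.22 ± 0.25 and -0.48 ± 0.17, with adjusted p of 0.434 and 0.146. Both arrays put Actn3 and Actn1 on the positive side and Actn4 on the negative side.

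Calponins and transgelins are related actin-binding proteins. Cnn1, the calponin of smooth muscle, had 0.98 and 1.32 (1.15 ± 0.24, limma adjusted p 0.0472). Cnn2, made more widely, had -1.11 and -0.34 (-0.73 ± 0.54, adjusted p 0.131) and Cnn3 -0.09 ± 0.01. Cnn1 lay above the others of its family on both arrays. Of the transgelins, Tagln2 of many cells had -0.62 and -1.05 (-0.83 ± 0.30, limma adjusted p 0.0782) and Tagln3 of neurons 0.46 and 1.00 (0.73 ± 0.38, adjusted p 0.104). Tagln, the smooth muscle form, had no value on either array. Smtn, smoothelin of contractile smooth muscle, had -0.54 and -0.56 (-0.55 ± 0.02, adjusted p 0.108). Both arrays were positive for 2 of these 6 and negative for 4, and Cnn1 alone was called. The bases before the start of Cnn1, the called smooth muscle gene, hold neither motif (chr9:22099003-22099252, plus strand):

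Cnn1: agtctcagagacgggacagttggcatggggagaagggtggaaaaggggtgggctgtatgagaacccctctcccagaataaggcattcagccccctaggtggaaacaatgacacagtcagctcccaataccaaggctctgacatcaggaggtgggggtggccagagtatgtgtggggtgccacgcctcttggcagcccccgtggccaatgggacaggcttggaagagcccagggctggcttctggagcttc

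Intermediate filaments are a separate, non-contractile network, and the list holds 2 of them. Vim, vimentin of mesenchymal and many tumour cells, had -0.90 and -1.14 (-1.02 ± 0.17, limma adjusted p 0.0488), which is 2.03-fold where base 2 holds. Des, desmin of muscle cells, had 1.01 and 0.78 (0.89 ± 0.16, adjusted p 0.0587). Both arrays gave vimentin and desmin opposite signs, and the difference between them was not tested.

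**Figure D2:**
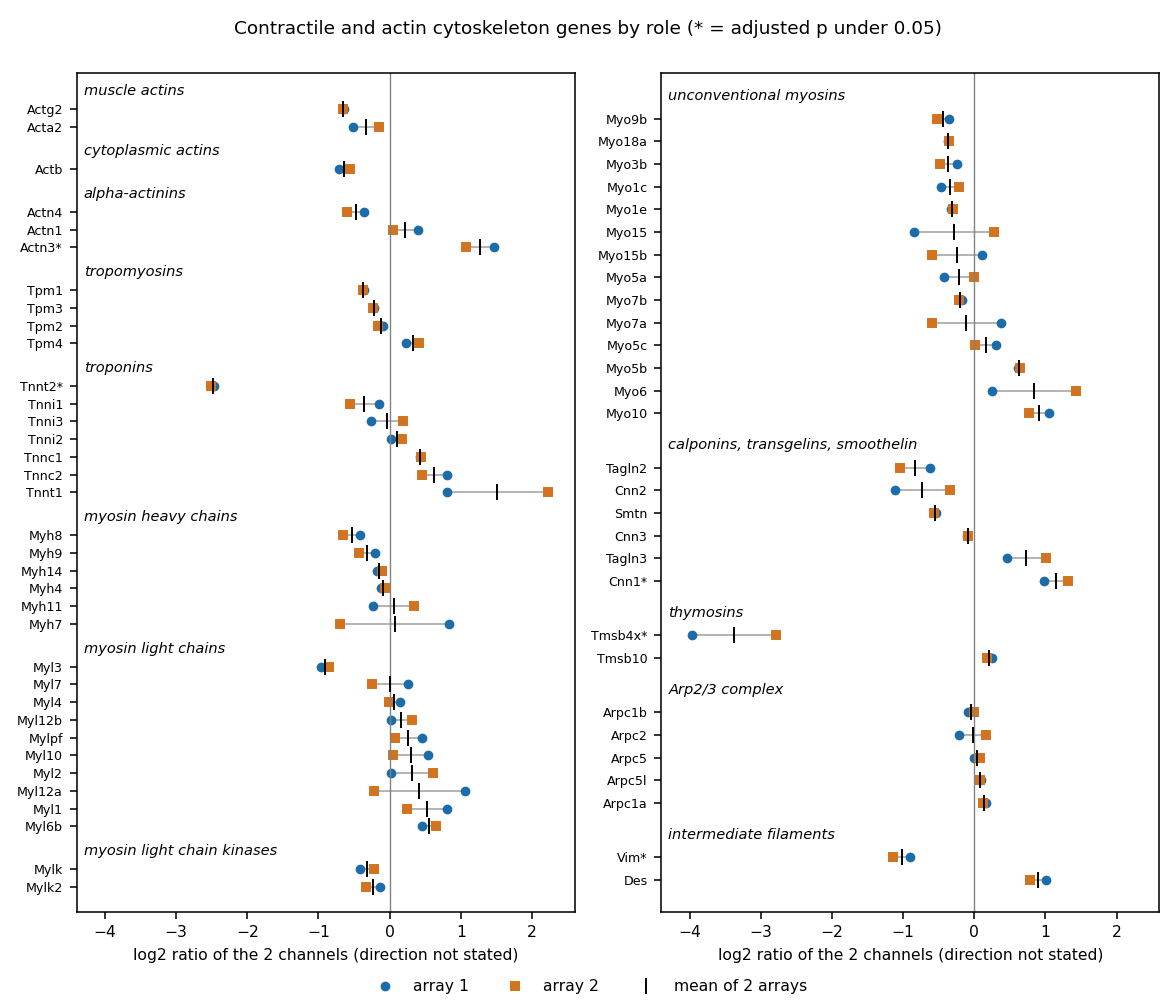
Log2 ratio (x axis) of the 64 genes, grouped by role and ordered by mean; circles are array 1, squares array 2, bars the mean, and stars mark an adjusted p under 0.05. Relatives lie on opposite sides in the troponin T, thymosin, calponin, transgelin and intermediate filament groups, while the 5 Arp2/3 genes stay between -0.22 and 0.17.

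Myosin heavy chains, the motor subunits, gave 0 calls in limma's test among 6 genes, with 1 at an unadjusted p under 0.05. This was Myh8, a chain of developing muscle, at -0.41 and -0.66 (-0.54 ± 0.18, adjusted p 0.123). The non-muscle chains Myh9 and Myh14 had -0.32 ± 0.15 and -0.15 ± 0.05, and Myh4 of fast muscle -0.09 ± 0.04. Myh11, which defines smooth muscle, had -0.23 and 0.34, and Myh7, of slow and heart muscle, 0.84 and -0.70. For the last 2 the arrays disagreed in sign, so no side can be given.

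Myosin light chains, which stiffen the motor's lever and regulate it, were more often positive than negative. Both arrays were positive for 6 of the 10 (33.9% of all genes) and negative for 1 (38.2%), while 3 were mixed. Their mean ratios had a median of 0.28. Array 2 placed the group's middle ratio at 0.06, well under the 0.355 of array 1. Among the 6 positive genes, Myl2 and Myl12b stood at 0.02 on array 1, and Myl10 at 0.05 on array 2. The limma fit gave 0 calls, and 3 of the 10 had an unadjusted p below 0.05, against 27.5% of all genes. The 1 negative gene was Myl3, a light chain of heart and slow muscle, at -0.96 and -0.85 (-0.91 ± 0.08, adjusted p 0.0550), next outside the threshold. Myl6b had 0.46 and 0.65 (0.56 ± 0.14), Myl1 of fast muscle 0.80 and 0.25 (0.53 ± 0.39), and Mylpf, also of fast muscle, 0.45 and 0.07 (0.26 ± 0.27). The other 6 means lay between 0.005 and 0.42, none with an unadjusted p under 0.05 in limma's test. The kinases that phosphorylate light chains were slightly negative on both arrays, Mylk of smooth muscle at -0.32 ± 0.13 and Mylk2 of skeletal muscle at -0.23 ± 0.14, with limma adjusted p of 0.252 and 0.381.

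Unconventional myosins move vesicles, membranes and cell protrusions rather than muscle filaments. On both arrays 4 of the 14 were positive (33.9% of all genes) and 7 negative (38.2%), and their median was -0.23. None reached an adjusted p under 0.05 in limma (0 called), and 4 had an unadjusted p below 0.05, against 27.5% of all genes. Myo10, the motor of filopodia, had 1.05 and 0.78 (0.91 ± 0.19, adjusted p 0.0587). Myo5b, which recycles membrane to the apical side of epithelial cells, had 0.61 and 0.64 (0.62 ± 0.02, adjusted p 0.0913). On the negative side were Myo9b at -0.43 ± 0.12 and Myo18a at -0.36 ± 0.01, with adjusted p of 0.159 and 0.197. Myo6, the motor that walks towards the pointed end, was positive on both arrays, at 0.25 and 1.43, with a mean of 0.84 ± 0.84. The arrays differed widely in its size. The 10 genes not picked by the naming rule, Myo6 among them, ran from -0.36 to 0.84.

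The Arp2/3 complex starts branched actin networks at the leading edge. Its 5 measured subunits had means from -0.04 to 0.14. Arpc1a had 0.16 and 0.12, and Arpc5l 0.09 and 0.08, positive on both arrays. Arpc1b, Arpc2 and Arpc5 had -0.04 ± 0.06, -0.02 ± 0.28 and 0.04 ± 0.06. The limma fit gave 0 calls among the 5, and 0 had an unadjusted p below 0.05. The limma 95% interval of Arpc1a ran from -0.25 to 0.52.

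The genes were also grouped by the muscle type from which each is best known. Among the 7 fast skeletal genes, both arrays put 5 on the positive side (33.9% of all genes) and 2 on the negative side (38.2%). Actn3 was the 1 call, where 2.12% of all genes were called on the positive side. The mean ratios of these 7 had a median of 0.26, and the median was 0.45 on array 1 but 0.17 on array 2. Slow skeletal and heart genes had no common side, with 3 of 10 positive, 3 negative and 4 mixed, a median of 0.03, and means from -2.49 for Tnnt2 to 1.51 for Tnnt1. Smooth muscle genes were 7, of which 4 were negative, 2 positive and 1 mixed, with a median of -0.32. Des, desmin of muscle cells in general, was counted among these 7. Here Cnn1 and Des stood at 1.15 and 0.89, apart from Actg2, Smtn, Acta2 and Mylk between -0.65 and -0.32. The 39 genes with broad or other use had a median of -0.12, and held the calls of Tmsb4x and Vim. On arrays 1 and 2 the medians were 0.08 and -0.13 for slow skeletal and heart genes. They were -0.41 and -0.15 for smooth muscle genes, and -0.10 and -0.11 for the 39 genes.

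**Figure D3:**
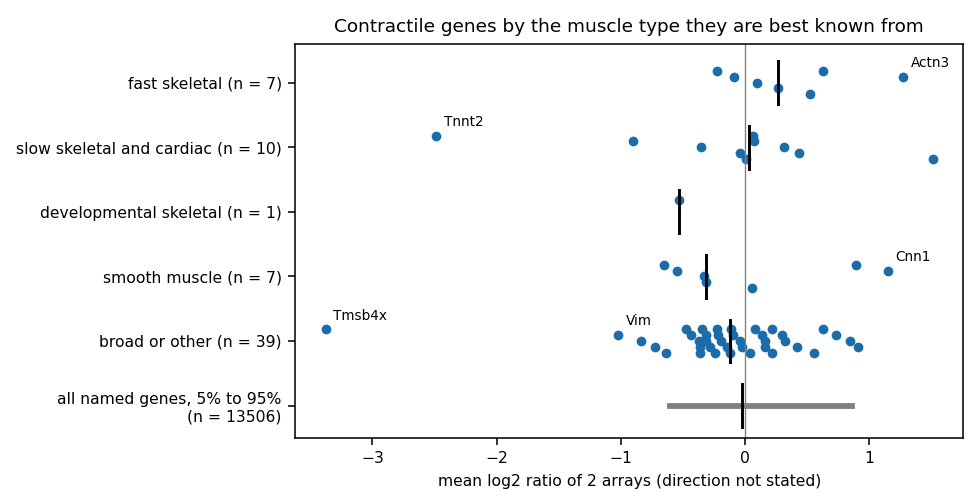
Mean log2 ratio of 2 arrays (x axis) for each gene by muscle type; vertical bars are group medians, and the grey bar spans the 5% to 95% percentiles of all 13506 genes. Medians run from 0.26 in 7 fast skeletal genes to -0.32 in 7 smooth muscle genes (-0.54 for the single developmental gene), with Tmsb4x and Tnnt2 far outside.

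Promoters were searched because serum response factor, acting through the CArG box, is known to drive many actin and muscle genes. RefSeq windows from 250 bases before to 50 after a start (GRCm38.p6) were matched for 55 of the 64 genes, with 69 starts. The CArG box was searched on both strands, and its pattern reads the same on either. It was found in 5 of the 69 windows (7.25%), against 1.63% of 32851 windows of all genes. The letters TATAAA, searched on both strands, were in 13.0% against 13.6%. The 5 windows with a CArG box belong to genes whose means were -0.73 (Cnn2), -0.09 (Myh4), -0.91 (Myl3), 0.005 (Myl7) and -0.31 (Myo1e), none of them called. A match describes letters only. Each is shown in 30 bases with the box in capitals:

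Cnn2 (chr10:79988534-79988563, plus strand): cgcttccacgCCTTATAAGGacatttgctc

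Myh4 (chr11:67237698-67237727, plus strand): aaagagattgCCAAAAATGGttttgccaag

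Myl3 (chr9:110763583-110763612, plus strand): gagccaatgcCCTTTTATGGccctgtccct

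Myl7 (chr11:5898824-5898853, minus strand): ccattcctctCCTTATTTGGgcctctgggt

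Myo1e (chr9:70207308-70207337, plus strand): gctgaattctCCATTTATGGacagattgcc

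Of the called genes with a window, only Vim held TATAAA, ending 27 bases before its start. Serum response factor itself, Srf, had -0.36 and 0.25. Its muscle partner Myocd, myocardin, had 0.65 and 1.05 (0.85 ± 0.28, limma adjusted p 0.0723), and the partners Mrtfa and Mrtfb had 0.21 ± 0.10 and 0.32 ± 0.26.

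Another 10 genes of the rule had a value on 1 array only, and 6 on neither (Actn2, Myh3, Myo16, Myo1d, Myo1g and Tagln). Of the 10, 9 were positive, with a median of 1.14. The widest were Myo9a at 1.95 and Myo3a at 1.72 on array 1, Myh10, a non-muscle heavy chain, at 1.67 on array 2, and Tmsb15a at 1.34 on array 2. Myh1 and Myh6, heavy chains of fast muscle and heart, had 1.28 and 0.84 on array 1. Such values lay on the positive side throughout the table: 91.2% of the 915 probes with a value on array 1 only were positive, and 82.1% of the 1387 on array 2 only. These 10 genes are therefore given as single values without a test.

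Genes outside the list that work on the same filaments were set beside the 2.9% called among all genes. Of 64 measured genes of actin dynamics and crosslinking, both arrays put 20 on the positive and 32 on the negative side, with a median of -0.18, against -0.02 for all genes tested. Wasl, which activates the Arp2/3 complex, was the 1 called, at 1.63 and 1.48 (1.55 ± 0.11, limma adjusted p 0.0283). Sptbn1, a spectrin of the membrane skeleton, at -0.89 ± 0.02 and Anln, anillin of the contractile ring, at -0.87 ± 0.13 were next outside the threshold on the negative side. Pfn1, profilin, had -0.51 ± 0.13 and Cfl1, cofilin, -0.16 ± 0.03. Among 4 intermediate filament and linker genes, Nes, nestin, was called at -0.90 and -1.02 (-0.96 ± 0.08, adjusted p 0.0498).

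Markers of cells that could carry the muscle forms into the tissue were set beside these values. Of 19 skeletal muscle markers that are not in the list, 10 were positive and 3 negative on both arrays, with a median of 0.18. Tcap, the titin cap of the sarcomere, at 1.77 ± 0.33 and Myom1, myomesin, at 1.41 ± 0.04 were called (limma adjusted p 0.0306 and 0.0330). Ckm, the abundant creatine kinase of muscle, had 0.10 ± 0.05 and Myog, myogenin, 0.69 ± 0.03. The 3 negative skeletal markers were Ckmt2 at -0.45 ± 0.55, Trdn at -0.30 ± 0.06 and Pygm at -0.11 ± 0.05. Of 7 heart markers, 4 were positive on both arrays, 1 negative (Hspb7 at -0.28) and 2 mixed, with a median of 0.16. Nppb, a natriuretic peptide, was the 1 called, at 1.22 ± 0.02 (limma adjusted p 0.0386), on the side opposite to Tnnt2. Both ratios were positive for 6 of the 12 smooth muscle and pericyte markers and negative for 4, while 2 were mixed. The median of this list was 0.07. Cspg4 of pericytes was the 1 called, at -1.24 ± 0.13 (limma adjusted p 0.0398). Myocd at 0.85 ± 0.28 and Cald1 at 0.64 ± 0.27 had the highest means and were not called. The arrays disagreed in sign for Rgs5 (0.40 and -0.94) and Notch3 (-0.07 and 0.21). Of 11 fibroblast markers, 2 were positive on both arrays (Bgn at 1.28 and Fbn1 at 0.61), 6 negative and 3 mixed, with a median of -0.24. Col1a1, a chain of type I collagen, was the 1 called, at -2.93 ± 0.18. The other collagens in this list were nearer 0, Col1a2 at -0.24 ± 0.19, Col3a1 at -0.40, Col5a1 at -0.34 and Col6a1 at -0.41. Of 8 endothelial markers, 7 were positive on both arrays and 1 mixed, with a median of 0.51, and Flt1 at 1.25 and Robo4 at 1.04 were called (limma adjusted p 0.0475 and 0.0492). Hepatocyte markers were positive on both in 2 of 12, negative in 4 and mixed in 6, with a median of -0.02. Colonic epithelium markers were positive on both in 2 of 9, negative in 4 and mixed in 3, with a median of 0.02. Of 5 macrophage markers, 2 were positive on both arrays (Fcgr1 at 1.12 and Cd163 at 0.66) and 3 negative, with a median of -0.20, and Cd14 was called at -1.20 (limma adjusted p 0.0475). The part of these cells in the ratios of the contractile genes was not tested.

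The calls differed in how far they rested on the settings. Tnnt2 passed in 6 of 8 alternative fits and Tmsb4x in 5, whereas Actn3 passed in 3, Cnn1 in 2 and Vim in 0. Vim had an limma adjusted p of 0.0522 once each array was centred on its median, and its range over the 8 alternatives was 0.0510 to 0.471. All 5 lost the call after quantile normalization, where adjusted p were 0.0643 to 0.0787. A further 8 genes had a limma adjusted p between 0.0550 and 0.0922: Myl3, Myo10, Des, Tagln2, Actg2, Tnnt1, Myo5b and Actb, 4 on each side. With the 5 calls included, 13 of the 64 genes lay under 0.1, as did 1476 of all 13506 genes. With 2 arrays, an exact test over samples cannot give a two-sided p below 0.5.

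**Figure D4:**
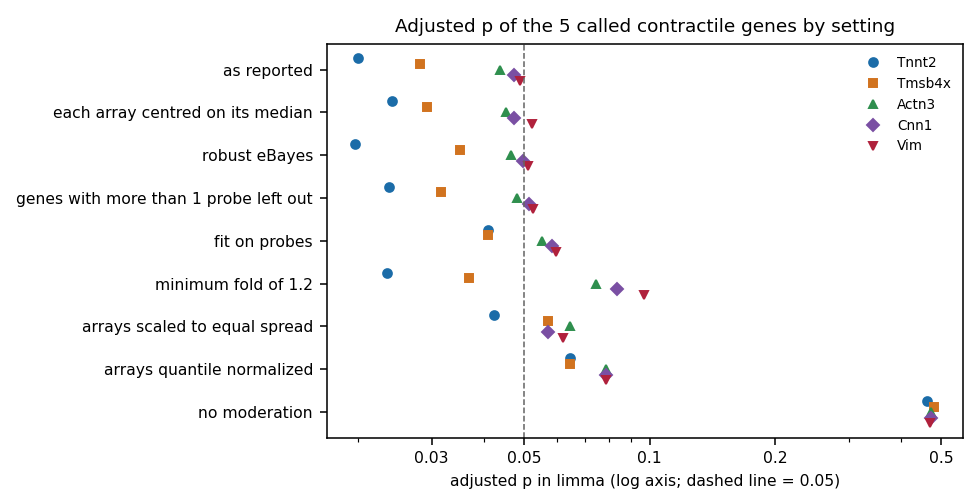
Adjusted p in limma (x axis, log scale) of the 5 called genes as reported and under 8 alternative settings; the dashed line is 0.05. Tnnt2 stays left of the line in 6 alternatives and Vim in 0.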

How the data were processed

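Per the labels, each two-colour array carried a Cy5-labelled primary tumour and a Cy3-labelled liver metastasis, from total RNA amplified to amino-allyl aRNA. The authors deposited 1 log2 ratio per probe and array; base 2 was assumed, since the sources used here do not state it, and they give no numerator, background correction, spot filter or normalization. No intensities were used, and precision is limited by there being 2 arrays.

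Both arrays held a value for 18837 of the 23473 probes. The platform annotation named 16631 probes, counted whether or not they had a value on both arrays. Symbols were updated through the RefSeq table of GRCm38.p6 (4 members were renamed). Named probes with a value on both arrays were averaged by gene, giving 13506 genes. Each gene's mean ratio was set against 0 in an intercept model (limma 3.58.1 under R 4.3.3, lmFit and eBayes, with 4.06 prior and 1 residual degrees of freedom) and p-values were adjusted by Benjamini-Hochberg over all genes. The fit was tested on simulated data with independent noise, variances drawn from the prior of these arrays and no dye preference. The simulation was not used to judge the calls. Members, lists and tests were chosen with earlier results of these data known. Genes were named where called, and otherwise as the up to 4 per role with the same sign on both arrays and the largest value on the weaker array, plus Acta2, Myh11, Actb and Vim; Cnn2, Cnn3, Tnni1, Tnni2, Tnni3, Myh7, Myo6, Arpc1b, Arpc2, Arpc5, the genes with a CArG box and the list genes outside the members were picked after their values were seen. Alternatives were centring, scaling, quantile normalization, robust or no moderation, a minimum fold of 1.2, a fit on probes, other thresholds and other readings of the rule. Figures were drawn with matplotlib 3.10.9. One list of signalling genes is not reported here.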

Additional observations from a re-analysis of the deposited data

How the results depend on the processing

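As reported, 391 of all genes and 5 contractile genes passed. The counts over all genes and over the contractile genes were 51 and 1 when both arrays were given the same spread, 4 and 0 with quantile normalization, and 108 and 2 with a minimum fold of 1.2. They were 161 and 2 in the fit on probes, 255 and 3 without genes of more than 1 probe, 1476 and 13 at a threshold of 0.1, and 0 and 0 without moderation. The fit on probes gave each gene the lowest adjusted p among its probes. By size alone (1 log2 unit or more on each array) 307 of all genes and 3 contractile genes passed. Where limma called 0 contractile genes, 22 (quantile) and 12 (no moderation) had an unadjusted p under 0.05, against 3675 and 1450 of all genes. Without moderation 1 residual degree of freedom is left, which limits the power. Centring left 358 calls over all genes and robust moderation 267, with 4 contractile calls each. Platform symbols or the other reading of the Arp2/3 pattern left 5 contractile calls.

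The median of the contractile genes was -0.07, and it was -0.043 after centring and -0.092 with platform symbols or with the other reading of the pattern. Leaving out an array gave -0.075 without replicate 1 and -0.095 without replicate 2, as values without a test. Counts of genes on 1 side on both arrays moved by at most 2. Among the 39 genes picked by the naming rule, none changed the sign of its mean under centring, scaling or quantile normalization. The moderation, fold and probe settings kept each gene's mean as it was, so no sign could change there. The other genes in the text were not followed across settings. All values rest on 2 arrays, and signal over background is unknown.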
